A study of Homo sapiens with 16 samples.

Results

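The messenger RNAs of 32 enzymes that make purine and pyrimidine nucleotides were followed in P493-6 cells, a line of immortalised human B lymphocytes whose MYC transgene is shut down by doxycycline. The 32 genes are those of a list of symbols drawn up by pathway, with no measured value in the rule. The list was chosen with earlier results of these data known, so its counts describe it and are not an independent test. All 32 were found among the 58051 genes of the normalised count table. All 32 also passed the filter on low values, a mean normalised count of at least 10 over the 16 libraries, as did 13765 genes in all. By role they comprise 2 genes of PRPP synthesis, 6 of the purine chain to IMP, 4 of the branches from IMP to AMP and GMP, 2 of purine salvage, 5 of pyrimidine synthesis to UMP and CTP, 5 nucleotide kinases, 3 of nucleoside salvage and 5 of deoxynucleotide and thymidylate synthesis.

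There were 4 groups of 4 libraries of total RNA. Cells at high MYC grew in ordinary DMEM with serum, and cells at medium MYC received in addition 0.1 µg/mL doxycycline and 1 µM β-estradiol, starting 24 h ahead of treatment. At each MYC level cells then received either IMP1088 at 100 nM, which blocks the N-myristoyltransferases (NMT) that attach myristate to proteins, or its DMSO vehicle for 24 h. Estradiol also activates the EBNA2 fusion protein that this line carries, so MYC level, doxycycline and estradiol changed together and cannot be told apart. The labels do not say whether the 4 libraries of a group came from separate cultures, so the p-values measure only the spread between these libraries, which may be technical. The study's title sets NMT inhibition against MYC levels, and the comparisons ask this of the nucleotide enzymes.

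Purines are assembled step by step on a ribose phosphate supplied by PRPP, and the chain ends at IMP, from which separate branches lead to AMP and GMP. The pyrimidine ring is made before it is joined to PRPP, which leads to UMP and then to CTP. Ribonucleotide reductase turns ribonucleotides into deoxynucleotides, thymidylate synthase makes the thymine nucleotide of DNA, and salvage enzymes recover bases and nucleosides instead of making them anew. Many genes of the synthesis chains are textbook targets of MYC, and those of deoxynucleotide supply are known to be transcribed mainly around S phase.

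Depth lay between 8755296 and 13858534 reads per library, and members had between 60 and 8348 reads in a library. Replicates correlated across genes at r from 0.985 to 0.990 on the log2 scale. The 5 B cell markers examined (MS4A1, CD79A, CD79B, CD22 and PAX5) were present in every group, with a summed normalised count of 18874 to 38720.2. The 4 T cell markers summed to 43.1 to 95.4, with CD3D and CD2 at a mean below 3 in every group and CD3E at means of 32.3 to 59.6. The 4 monocyte and macrophage markers summed to 41.4 to 83.4, most of it LYZ, with FCGR1A below 3 in every group. The 4 fibroblast and epithelial markers summed to 64.8 to 94.6 at high MYC and to 177 to 238 at medium MYC. Of these, COL1A1 lay between 4.44 and 19.4 at high MYC and between 152 and 217 at medium MYC, EPCAM went the other way, from 54.2 to 86.3 at high MYC to 9.39 to 22.8 at medium MYC, and KRT18 was at 0 in every library. The part of these markers in the results was not tested. In bulk RNA scaled to each library, less RNA per cell and fewer cells of a kind cannot be told apart, and a value is relative to the other genes of its library.

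MYC was examined first, because its level defines the groups. Its normalised counts were 29693, 30251, 32276 and 34376 in the high MYC DMSO libraries and 904, 949, 959.6 and 1022 in the medium MYC DMSO libraries. With IMP1088 they were 46843, 47631, 47645 and 48049 at high MYC and 1328, 1356, 1400.4 and 1444 at medium MYC. No 2 of these groups overlapped, and the exact permutation test of each comparison gave p = 0.0286, the smallest value that 4 against 4 libraries allow. The log2 change from high to medium MYC was -5.04 (adjusted p = 7.37e-27 by limma, SE 0.04) in DMSO and -5.10 (adjusted p = 5.75e-27 by limma, SE 0.04) under IMP1088. Under IMP1088, MYC mRNA was higher by 0.59 at high MYC and by 0.53 at medium MYC on the log2 scale (limma adjusted p = 7.24e-10 and 2.74e-09).

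Most of the nucleotide enzymes were lower at medium MYC, and a small set was higher. In DMSO, 25 of the 32 members were lower, 6 were higher and 1 did not pass the limma test at an adjusted p under 0.05. Among all genes tested 37.3% were lower and 38.9% were higher. The median log2 change of the members was -0.74, against 0.02 over all genes tested. The medium and high MYC libraries did not overlap for 30 of the 32 members, and for 69.2% of all genes tested. All 12 genes of PRPP synthesis, of the purine chain to IMP and of the IMP branches fell, as did both purine salvage genes and 4 of the 5 pyrimidine synthesis genes. Of the 5 genes of deoxynucleotide and thymidylate synthesis, 3 rose and 2 fell. The roles' medians ran from -1.24 for the purine chain to IMP to 0.16 for deoxynucleotide synthesis, and the difference between roles was not tested.

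Under IMP1088 the same contrast of MYC levels gave 25 lower, 6 higher and 1 that did not pass, against 37.8% lower and 39.7% higher among all genes tested. The median log2 change was -0.90 for the members and 0.02 over all genes. The groups did not overlap for 31 of the 32 members and for 72.6% of all genes tested. This contrast shares no library with that in DMSO. The 6 genes that rose in DMSO (CTPS2, CMPK1, TK1, TYMS, RRM1 and RRM2) also rose under IMP1088, and 24 of the 25 that fell in DMSO also fell. A correction for the GC content of genes moved the median of all genes by -0.11 in DMSO and -0.13 under IMP1088. Relative to that shifted median the members then stood at -0.79 and -0.91, and RRM1 in DMSO was the one member whose call in these contrasts it ended.

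**Figure D1:**
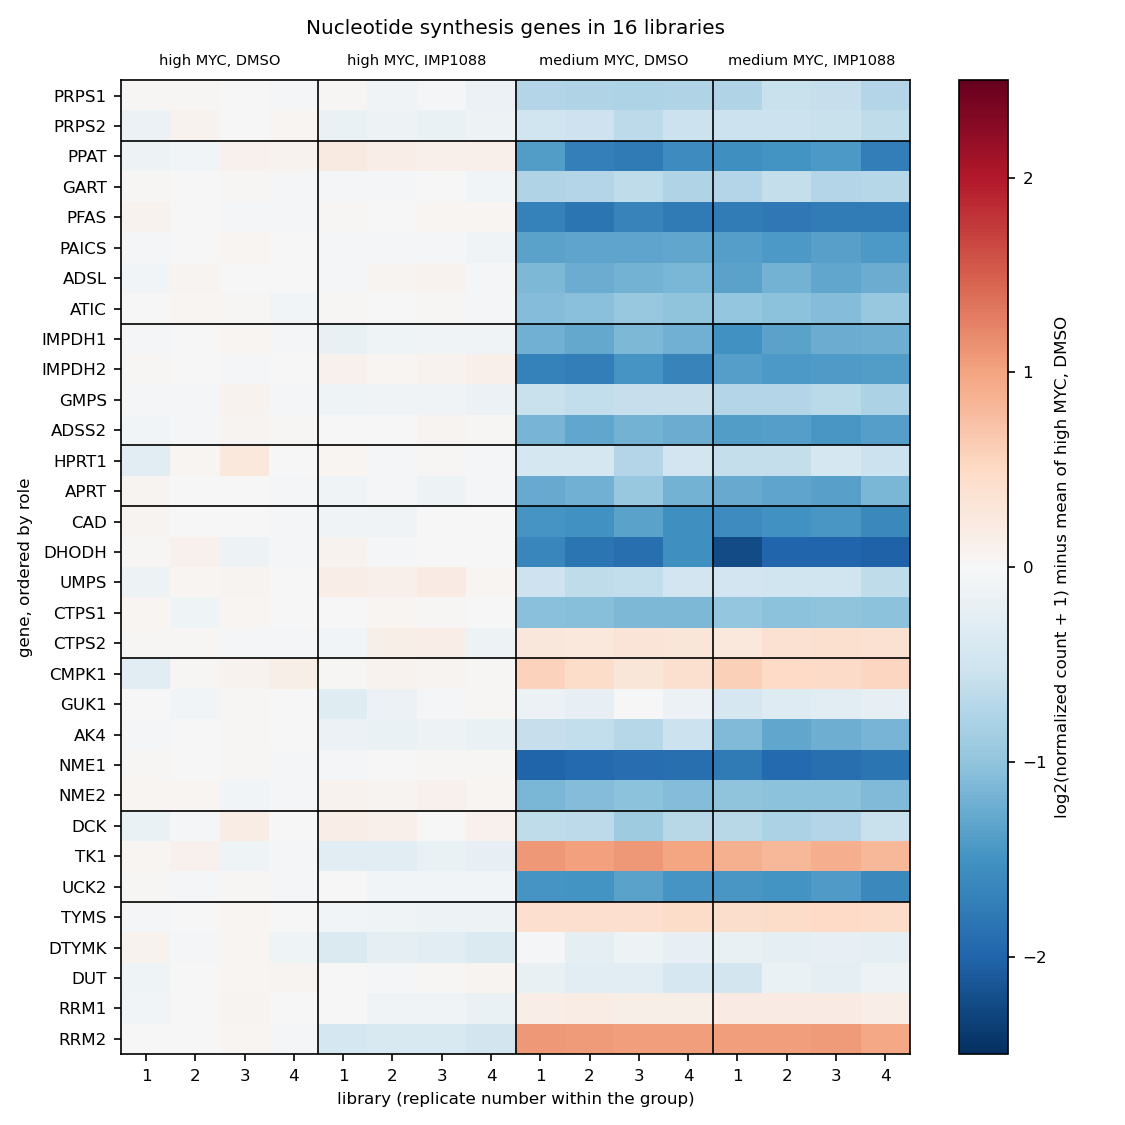
Each row is a nucleotide enzyme gene, grouped by role with lines between roles, and each column is a library. Colour gives log2 of the normalised count plus 1 minus the mean of the high MYC DMSO libraries. The medium MYC columns are blue for most genes, from PRPS1 down to UCK2, and red for CTPS2, CMPK1, TK1, TYMS, RRM1 and RRM2.

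PRPS1 and PRPS2 make PRPP, the activated ribose phosphate used by both pathways and by salvage. PRPS1 was 729.8, 752, 766 and 776 in high MYC DMSO libraries and 439, 449, 449.7 and 453 in medium MYC DMSO libraries, in normalised counts. The PRPS1 groups did not overlap, and its log2 change was -0.75 (adjusted p = 5.75e-12 by limma, SE 0.05). PRPS2 went from 821 ± 56.9 to 559.8 ± 27.7 normalised counts (SD, n = 4). It fell by less, with a log2 change of -0.55 in DMSO and -0.42 under IMP1088 against -0.59 for PRPS1, and the difference between these genes was not tested.

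All 6 enzymes of the purine chain to IMP fell, with log2 changes in DMSO between -1.74 for PFAS and -0.72 for GART. PPAT (chr4:56393362-56435615 on GRCh38) catalyses the committed step of the chain. Its normalised counts were 933, 961, 1075 and 1099 at high MYC and 298, 312, 341 and 384 at medium MYC in DMSO, a 3.05-fold difference with no overlap. The log2 change of PPAT was -1.61 (adjusted p = 9.29e-15 by limma, SE 0.07) in DMSO and -1.71 under IMP1088. PFAS (chr17:8247618-8270491), which adds nitrogen from glutamine at the fourth step, was 2576, 2621, 2669 and 2824 at high MYC and 754, 784, 824 and 836 at medium MYC. The PFAS groups were far apart, and the log2 change was -1.74 (adjusted p = 1.12e-20 by limma, SE 0.04). PAICS (chr4:56435741-56464579), a protein with 2 enzyme activities in the middle of the chain, was 6287, 6408, 6409.6 and 6617 and 2550.3, 2579, 2591 and 2614, a log2 change of -1.32 (adjusted p = 5.47e-21 by limma, SE 0.03).

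ADSL, which acts both in this chain and in the branch to AMP, went from 1445 ± 54.4 to 640.4 ± 23.9 normalised counts in DMSO (SD, n = 4). Its log2 change was -1.17 there and -1.29 under IMP1088. ATIC, which closes the IMP ring, went from 2081 ± 75.9 to 1026 ± 39.3, with log2 changes of -1.02 and -1.01. GART carries 3 activities of the chain in a single protein and changed least, from 2163 ± 46.8 to 1313 ± 52.3 normalised counts (SD, n = 4), a log2 change of -0.72 (adjusted p = 3.85e-14 by limma, SE 0.04). Exons of GART overlap those of SON on the opposite strand, and no source used here says whether reads were counted by strand. SON moved the other way, from a mean of 6895 at high MYC to 8416 at medium MYC in DMSO.

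The genes PPAT and PAICS lie head to head on chromosome 4, with 125 bases between their annotated starts, and both fell at medium MYC. This stretch is shown because both genes border it. All 6 genes of the purine chain fell, so a joint fall was not particular to this pair. Under IMP1088 their log2 changes had opposite signs. They were 0.16 for PPAT and -0.06 for PAICS at high MYC, neither called, and 0.06 and -0.08 at medium MYC, where PAICS was called lower. In the RefSeq promoter windows (250 bases before to 50 after a start, GRCh38.p14) 30 of the 32 members had an entry, and IMPDH2 and ADSL had none. The letters CACGTG, the palindromic E-box to which MYC with MAX is known to bind and which reads alike on both strands, were found in the windows of 7 of the 30 members (23.3%) and of 8.77% of 27305 genes. The 27305 are all genes with a window, whether or not they passed the filter on low values, whereas every member passed it. The share among genes that passed was not computed. The 7 are PPAT, PAICS, ATIC, DHODH, AK4, NME1 and DCK, and each was lower at medium MYC in DMSO. Of the 23 lower members with a window 7 held the letters, PPAT and PAICS through the same site. Of the 6 higher members 0 did, too few genes to tell this from the 8.77% of all genes. A difference by direction was not tested. A match describes letters in a window and not a bound site. Below, capitals mark the E-box within 30 bases read in the direction of the gene, and the first line is the stretch between PPAT and PAICS, chr4:56435616-56435740 on the plus strand, with 76.0% G or C and no capitals.
PPAT to PAICS: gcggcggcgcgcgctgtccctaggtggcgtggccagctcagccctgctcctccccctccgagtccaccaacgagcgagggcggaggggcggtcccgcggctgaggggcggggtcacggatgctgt
PPAT: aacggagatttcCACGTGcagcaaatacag
PAICS: ctggaaagctgtatttgctgCACGTGgaaa
ATIC upstream: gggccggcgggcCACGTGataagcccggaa
ATIC downstream: ctcctacctgcgCACGTGgtgccgccgctg
DHODH: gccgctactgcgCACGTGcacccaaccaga
AK4 upstream: ggtcgcagggagCACGTGggccaggcaggc
AK4 downstream: ccacacgttgccCACGTGcgaggaccgggc
NME1: caagtgctgcgaacCACGTGggtcccgggc
DCK: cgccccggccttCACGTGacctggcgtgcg
The PPAT and PAICS lines show the same E-box (chr4:56435792-56435797) from either side: it begins 182 bases before the PPAT start and at base 41 from a PAICS start. The others are chr2:215312001-215312030 and chr2:215312076-215312105 for ATIC, chr16:72008573-72008602 for DHODH, chr1:65147447-65147476 and chr1:65147858-65147887 for AK4, chr17:51153579-51153608 for NME1 and chr4:70993521-70993550 for DCK, all on the plus strand. ATIC is the member with 2 such letters around a single start, at -46 and 30 relative to it, whereas the 2 of AK4 belong to different starts.

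At the branch point the 4 genes that turn IMP into AMP and GMP all fell. IMPDH2 (chr3:49024325-49029408), with IMPDH1 the rate-limiting enzyme of guanine nucleotide synthesis, was 2516, 2534, 2575 and 2595 at high MYC and 773, 789.6, 807 and 915 at medium MYC in DMSO. These groups were far from overlap, and the log2 change was -1.64 (adjusted p = 3.03e-19 by limma, SE 0.04). IMPDH1 went from 1150.0 ± 30.7 to 499 ± 20.1 (SD, n = 4), for a change of -1.20 in DMSO, and had -1.21 under IMP1088. The remaining branch enzymes each lay clear of overlap too. ADSS2, which starts the branch to AMP, went from 1000.3 ± 43.3 to 429.9 ± 19.8, with log2 changes of -1.22 in DMSO and -1.42 under IMP1088. GMPS, which completes GMP, went from 1837 ± 80.9 to 1227 ± 23, with -0.58 and -0.62. Both purine salvage enzymes fell as well. APRT, which recovers adenine, went from 845 ± 29.1 to 382 ± 38.3 normalised counts (SD, n = 4), a log2 change of -1.15 (adjusted p = 1.04e-13 by limma, SE 0.06). HPRT1, which recovers hypoxanthine and guanine, was 603, 728, 763 and 882 at high MYC and 442, 531, 545 and 546 at medium MYC. The HPRT1 groups did not overlap but came close, its high MYC libraries being the most spread, and the log2 change was -0.52 (adjusted p = 8.02e-06 by limma, SE 0.08).

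Among the pyrimidine synthesis genes 4 of 5 fell and CTPS2 rose. CAD (chr2:27217390-27243943) encodes the protein that carries the opening 3 reactions of the pathway. Its normalised counts were 3907, 4004, 4058 and 4252 at high MYC and 1395, 1418, 1453 and 1594 at medium MYC in DMSO, with a log2 change of -1.47 (adjusted p = 2.53e-18 by limma, SE 0.04). DHODH (chr16:72008588-72027664), the mitochondrial enzyme of the fourth step, was 308, 327, 343 and 363 and 90.1, 94.2, 107 and 116. The DHODH groups differed 3.28-fold in DMSO and 4.21-fold under IMP1088, with log2 changes of -1.71 and -2.07 (limma adjusted p = 6.81e-14 and 2.17e-15). UMPS, which makes UMP, went from 726 ± 40.8 to 492 ± 27.1 (SD, n = 4). It changed least of the genes that fell here, with a log2 change of -0.56 in DMSO and -0.66 under IMP1088.

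CTPS1 and CTPS2 catalyse the same reaction, from UTP to CTP, and moved in opposite directions. CTPS1 was 1417, 1533, 1567 and 1570.3 at high MYC and 695, 701, 727 and 732 at medium MYC in DMSO, a log2 change of -1.09 (adjusted p = 3.89e-17 by limma, SE 0.04). CTPS2 was 269, 275, 286 and 286 and 334, 339, 343 and 349, a log2 change of 0.29 (adjusted p = 0.000326 by limma, SE 0.06). Neither gene's groups overlapped. The log2 ratio of CTPS1 to CTPS2 within a library, not scaled for gene length, was 2.44 ± 0.10 in high MYC DMSO, 2.43 ± 0.13 in high MYC IMP1088, 1.06 ± 0.06 in medium MYC DMSO and 1.08 ± 0.09 in medium MYC IMP1088 (SD, n = 4). The same ratio of IMPDH2 to IMPDH1 was 1.15 ± 0.05 and 1.37 ± 0.06 at high MYC and 0.72 ± 0.06 and 1.08 ± 0.15 at medium MYC, in DMSO and IMP1088 respectively (SD, n = 4). These ratios were chosen after values were seen and are given as a description.

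The nucleotide kinases, which pass phosphate between mono-, di- and triphosphates, did not move together: 3 of 5 fell in DMSO, CMPK1 rose and GUK1 did not pass. NME1 (chr17:51153536-51162428), a nucleoside diphosphate kinase, was 2238, 2272, 2319.7 and 2321 at high MYC and 568, 594, 611 and 622 at medium MYC. Its 3.82-fold difference, a log2 change of -1.93 (adjusted p = 7.79e-21 by limma, SE 0.04), was the largest of the 32 members in DMSO. NME2, its neighbour with the same activity, went from 3643 ± 159 to 1715 ± 53.7, a log2 change of -1.09 (adjusted p = 9.35e-18 by limma, SE 0.03). The log2 ratio of NME1 to NME2 was -0.67 ± 0.07 in high MYC DMSO and -1.52 ± 0.03 in medium MYC DMSO (SD, n = 4). Exons of both overlap those of the read-through gene NME1-NME2, whose mean was between 10.4 and 51.4 in the 4 groups, and how the authors' counting shared reads among the 3 is not given in the sources used here.

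AK4, a mitochondrial adenylate kinase (chr1:65147549-65232145), was 2687, 2728, 2731 and 2791 at high MYC and 1677, 1786, 1827 and 1876 at medium MYC in DMSO, a log2 change of -0.61 (adjusted p = 2.04e-12 by limma, SE 0.04). Under IMP1088 its change between MYC levels was -1.05 (adjusted p = 1.37e-16 by limma, SE 0.04). CMPK1, which phosphorylates UMP, CMP and dCMP, was 646, 795, 828 and 867 at high MYC and 961, 1032, 1073 and 1161 at medium MYC. The highest high MYC value of CMPK1 stayed below the lowest at medium MYC, and the log2 change was 0.44 (adjusted p = 5.65e-06 by limma, SE 0.07). GUK1, the guanylate kinase, was 685, 731, 731 and 741 at high MYC and 626, 651, 654 and 719 at medium MYC. Its log2 change was -0.13 (SE 0.06, limma adjusted p = 0.0752) in DMSO, with overlapping groups, and -0.20 (adjusted p = 0.00761 by limma, SE 0.06) under IMP1088. In DMSO it was called lower in 5 of the 14 other settings tried (pseudocounts, filters, scalings and models), among them the GC correction at -0.21 (limma adjusted p = 0.00108), and in 2 of the 16 fits without a library, those without high MYC IMP1088 library 1 (0.0408) or medium MYC DMSO library 3 (0.0237).

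**Figure D2:**
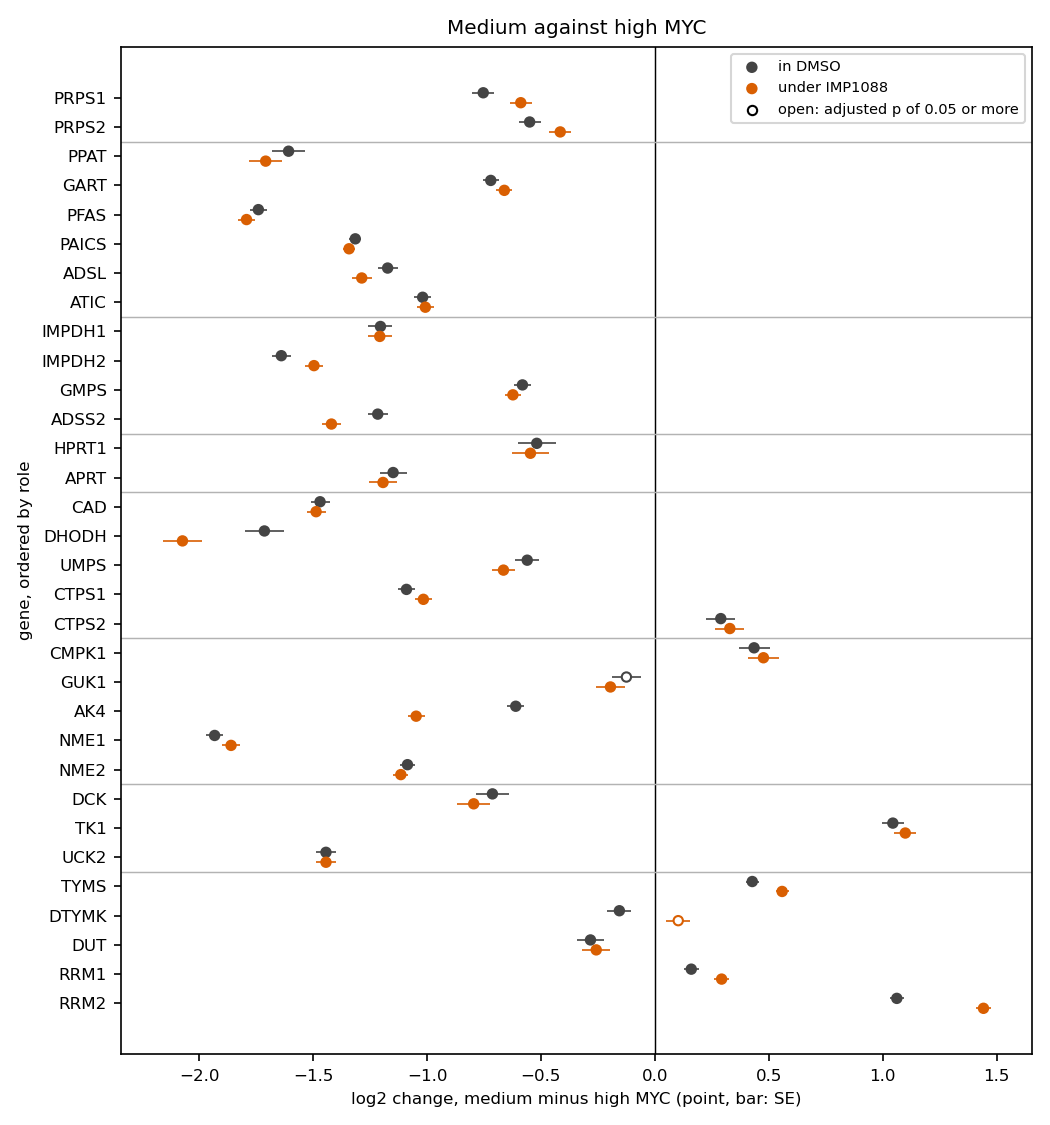
Points give the log2 change of each member from high to medium MYC, in DMSO (grey) and under IMP1088 (orange), with bars for the SE of the limma fit. Filled points had an adjusted p under 0.05. Most points lie left of 0, down to -1.93 for NME1 in DMSO and -2.07 for DHODH under IMP1088, and RRM2 lies farthest right at 1.06 and 1.44.

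Of the 6 members that rose, 3 belong to deoxynucleotide and thymidylate synthesis. RRM2 (chr2:10120698-10131419), the small subunit of ribonucleotide reductase, whose level is known to vary with the cell cycle, was 1380.3, 1414, 1425 and 1468 at high MYC and 2925, 2933, 2993 and 3021 at medium MYC in DMSO. All 4 medium MYC libraries were above all 4 high MYC libraries, a log2 change of 1.06 (adjusted p = 5.33e-18 by limma, SE 0.03). RRM1, the large subunit, was 1580.1, 1641, 1680.1 and 1738 and 1826, 1846, 1858 and 1881. Its groups did not overlap and its log2 change was 0.16 (adjusted p = 0.000231 by limma, SE 0.03), but after the correction for GC content it was 0.03 (limma adjusted p = 0.301). The log2 ratio of RRM2 to RRM1 within a library was -0.22 ± 0.04 in high MYC DMSO and 0.68 ± 0.02 in medium MYC DMSO (SD, n = 4). RRM2 has exons that overlap those of AC007240.1 on the same strand, and 3 pseudogenes carry its name.

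TYMS (chr18:657604-673578), the thymidylate synthase, was 1635, 1703, 1709 and 1744 at high MYC and 2259, 2261, 2269 and 2342 at medium MYC in DMSO. The groups did not overlap, and the log2 change was 0.43 (adjusted p = 8.09e-12 by limma, SE 0.03). Exons of TYMS overlap those of ENOSF1 and TYMSOS on the opposite strand. TK1 (chr17:78174075-78187233), the cytosolic thymidine kinase that salvages thymidine for DNA, was 387, 407, 431 and 449 and 825, 848, 889 and 891, which is 2.06-fold higher at medium MYC, the log2 change being 1.04 (adjusted p = 1.68e-14 by limma, SE 0.05). The other salvage kinases went down. DCK, which phosphorylates deoxycytidine, was 473, 515, 536 and 607 at high MYC and 288, 329.9, 336 and 343 at medium MYC, with a change of -0.71 (adjusted p = 7.76e-09 by limma, SE 0.07). UCK2, which phosphorylates uridine and cytidine, was 1515, 1520.0, 1564 and 1571 and 549, 551, 555 and 613, with a change of -1.44 (adjusted p = 8.69e-18 by limma, SE 0.04). Neither gene's groups overlapped. Exons of DCK overlap those of MOB1B on the same strand. Those of UCK2 overlap MIR3658 on the same strand and TMCO1 and AL358115.1 on the opposite strand. DUT, which removes dUTP and supplies dUMP, went from 966 ± 50.7 to 794 ± 51.3 normalised counts (SD, n = 4), a change of -0.28 (adjusted p = 0.000258 by limma, SE 0.06). DTYMK, which follows TYMS and TK1 towards dTTP, was 465, 489.6, 515 and 535 at high MYC and 424, 432, 459 and 484 at medium MYC. The DTYMK groups overlapped, and the log2 change was -0.16 (adjusted p = 0.011 by limma, SE 0.05).

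Replication and mitosis genes were measured beside RRM2, TK1 and TYMS. Of 12 such markers (CCNA2, CCNB1, CDK1, MCM2 to MCM7, MKI67, PCNA and TOP2A) 9 were higher at medium MYC in DMSO and 1, MCM4, was lower, against 38.9% higher and 37.3% lower among all genes tested, while MCM2 and CDK1 did not pass. Their median log2 change was 0.21, with a range from -0.26 for MCM4 to 1.07 for MKI67. Their summed normalised count ran from 34742 to 35780.2 in high MYC DMSO and from 47623 to 48301 in medium MYC DMSO. With IMP1088 it ran from 31188 to 31859 at high MYC and from 45557 to 47341 at medium MYC. Most of the rise of the sum came from MKI67, whose mean went from 7904 to 16577 in DMSO, and TOP2A, from 5627 to 8150, so the sum does not describe each marker. The part of these genes, or of the share of cells in S phase, in the change of the deoxynucleotide genes was not tested.

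The promoter letters of the genes that rose are shown for RRM2 and TK1, the pair with the largest increases. The CCAAT box, to which NF-Y is known to bind, was searched as CCAAT on both strands (ATTGG on the other), and no match overlapped an E-box match. It was found in 10 of the 30 members with a window (33.3%) and in 39.72% of 27305 genes. Among the 6 members higher at medium MYC it was in RRM1, RRM2 and TK1. Among the 23 lower members it was in 7 (CAD, DHODH, DTYMK, GART, NME1, PRPS1 and UCK2). Several boxes before a start were not particular to the genes that rose. GART, which fell, had 3 at -123, -99 and -53, and DTYMK, which also fell, had 2 at -92 and -24. The E2F-like letters GGCGGGAA, searched on both strands, were in 4 members (13.3%) and in 3.79% of genes, with RRM1 the single one among those that rose. For both motifs the share of genes again covers all genes with a window, whether or not they passed the filter. Capitals mark the CCAAT box below, in 30 bases read in the direction of the gene.
RRM2 site 1: ggcaaggcgcagCCAATgggaagggtcgga
RRM2 site 2: ggcatggcacagCCAATgggaagggccggg
RRM2 site 3: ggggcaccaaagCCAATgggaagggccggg
TK1 site 1: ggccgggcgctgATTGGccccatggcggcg
TK1 site 2: ggccggctcgtgATTGGccagcacgccgtg
The RRM2 sites are chr2:10122604-10122633, chr2:10122634-10122663 and chr2:10122661-10122690 on the plus strand, before a single start, at -123, -93 and -66 relative to it. All 3 hold the same 15 bases, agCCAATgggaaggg. A CCAAT match of RRM2 before another start (chr2:10122318-10122347, at -249) is outside this cluster and is not printed. The TK1 sites are chr17:78187112-78187141 and chr17:78187081-78187110 on the minus strand, at -77 and -46, with the box on the opposite strand to the gene in both.

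**Figure D3:**
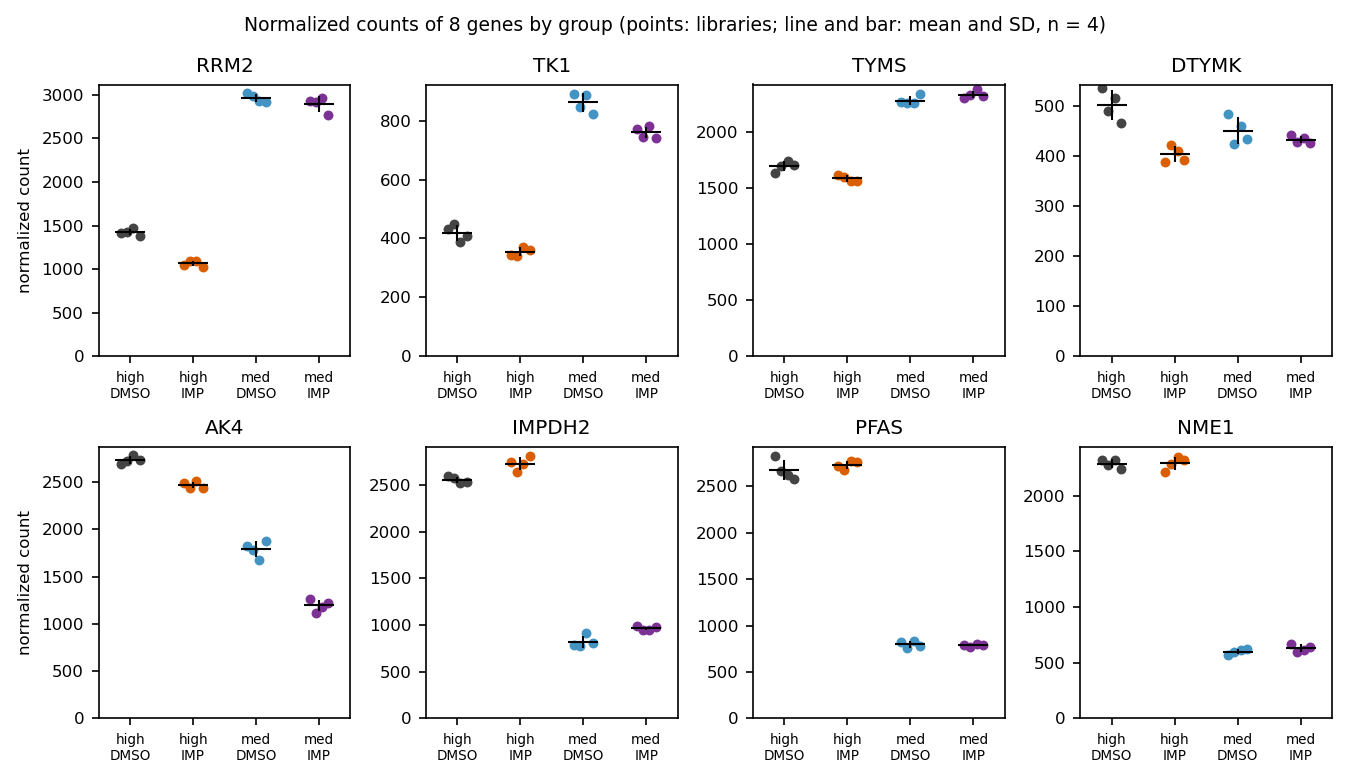
Points are the normalised counts of single libraries, with a line at the mean and a bar for the SD (n = 4), for RRM2, TK1, TYMS, DTYMK, AK4, IMPDH2, PFAS and NME1 in the 4 groups. RRM2, TK1 and TYMS stand higher in both medium MYC groups, IMPDH2, PFAS and NME1 stand lower, and AK4 steps down from group to group.

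Fewer of these genes were called under IMP1088 than between MYC levels, and the same held over all genes tested. At each MYC level 25% of members were called under IMP1088. This was close to the share of all genes tested, 26.8% at high MYC and 26.3% at medium MYC. Between MYC levels in DMSO the shares were 96.9% of members and 76.2% of all genes tested. At high MYC, 8 of the 32 members were lower under IMP1088 and 0 were higher by limma, against 16.3% lower and 10.5% higher among all genes tested. At an unadjusted p under 0.05 the members numbered 10 lower and 4 higher, edgeR called 7 lower and 3 higher, and DESeq2 called 5 lower and 1 higher. The median log2 change was -0.02 both for the members and for all genes. The libraries of the treated and control groups did not overlap for 10 of the 32, and for 26.7% of all genes tested. The 24 members that did not pass had log2 changes between -0.12 and 0.16.

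Of the 8 genes lower at high MYC, 4 belong to deoxynucleotide and thymidylate synthesis. RRM2 fell from 1380.3, 1414, 1425 and 1468 in DMSO to 1029, 1049.6, 1091 and 1093 under IMP1088. The groups were clear of each other, with a log2 change of -0.42 (adjusted p = 2.25e-09 by limma, SE 0.03). DTYMK fell from 465, 489.6, 515 and 535 to 388, 391, 410.2 and 421, a log2 change of -0.31 (adjusted p = 0.000116 by limma, SE 0.05) with no overlap. TYMS had a log2 change of -0.10 (limma adjusted p = 0.0146) and RRM1 of -0.09 (limma adjusted p = 0.0498). In nucleoside salvage, TK1 went from 387, 407, 431 and 449 to 342, 343, 362 and 372, a log2 change of -0.24 (adjusted p = 0.000887 by limma, SE 0.05). Of the replication and mitosis markers 9 of 12 were lower too, against 16.3% of all genes tested, with a median log2 change of -0.17, and their part in these changes was not tested.

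The other calls at high MYC were AK4, GMPS and PRPS2. AK4 went from 2687, 2728, 2731 and 2791 to 2439.7, 2440.2, 2486 and 2509.8, a log2 change of -0.15 (adjusted p = 0.00532 by limma, SE 0.04). GMPS went from 1837 ± 80.9 to 1700.4 ± 36.4 (SD, n = 4), a change of -0.11 (adjusted p = 0.0241 by limma, SE 0.04). PRPS2 went from 821 ± 56.9 to 739 ± 11.4, a change of -0.15 (adjusted p = 0.0282 by limma, SE 0.05), with overlapping groups. The purine chain to IMP had 0 of 6 genes called by limma at high MYC, with 1 higher and 1 lower at an unadjusted p under 0.05, 1 called higher by edgeR and 0 called by DESeq2. After the correction for GC content limma called PFAS higher by 0.11 (adjusted p = 0.00683) and PAICS lower at -0.07 (adjusted p = 0.0267). The chain's uncorrected log2 changes lay between -0.06 and 0.16. The calls of RRM2, DTYMK, TK1 and AK4 held in each of the 14 other settings and the 16 fits without a library. PRPS2 lost its call without high MYC DMSO library 2, 3 or 4 or IMP1088 library 1 or 3 (limma adjusted p from 0.0562 to 0.103), and GMPS without DMSO library 3 (0.0945) or IMP1088 library 4 (0.0767). RRM1 lost it in 13 of the 16 fits without a library, with an adjusted p of up to 0.177 without high MYC IMP1088 library 4. Of the 14 other settings, PRPS2 lost its call in 4, GMPS in 3, TYMS in 4 and RRM1 in 9. TYMS went down to -0.06 with quantile normalisation (limma adjusted p = 0.148), GMPS to -0.07 (0.166) and RRM1 to -0.05 (0.268). UMPS, at 0.14 (limma adjusted p = 0.0538), was called higher in 8 of the 14 and in 4 of the fits without a library. NME2 was called higher in 4 of the 14, among them the GC correction at 0.16 (limma adjusted p = 0.000194).

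At medium MYC, 7 members were lower under IMP1088 and 1 was higher, against 14.6% lower and 11.7% higher among all genes tested. The median log2 change was -0.02 for the members and -0.01 over all genes, and the groups did not overlap for 9 of the 32 members and for 27.9% of all genes. AK4 showed the largest change. Its normalised counts were 1677, 1786, 1827 and 1876 in DMSO and 1118, 1178, 1217 and 1266 under IMP1088, and the groups were far apart with a log2 change of -0.58 (adjusted p = 1.22e-10 by limma, SE 0.04). DHODH went from 90.1, 94.2, 107 and 116 to 69.9, 81.7, 83.4 and 83.6, a log2 change of -0.35 (adjusted p = 0.00438 by limma, SE 0.09) at the lowest read numbers of any member. IMPDH2 was the gene that rose, from 773, 789.6, 807 and 915 to 949.7, 951, 976 and 986, a log2 change of 0.24 (adjusted p = 0.000136 by limma, SE 0.04), with no overlap. At high MYC the same gene had 0.09 (limma adjusted p = 0.0981) and was called higher in 6 of the 14 other settings, among them the GC correction at 0.13 (limma adjusted p = 0.00498).

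Of the IMP branch enzymes, GMPS and ADSS2 were lower at medium MYC. GMPS went from 1197, 1228, 1230.5 and 1253 to 1055, 1098, 1109 and 1154, and ADSS2 from 405, 423, 443 and 449 to 362, 379, 383 and 386, without overlap in either. Their log2 changes were -0.15 (adjusted p = 0.00249 by limma, SE 0.04) and -0.19 (adjusted p = 0.00265 by limma, SE 0.04). TK1 went from 825, 848, 889 and 891 in DMSO to 743, 744, 771 and 782 under IMP1088, a log2 change of -0.18 (adjusted p = 0.00731 by limma, SE 0.05). After the correction for GC content the TK1 change was -0.09 (limma adjusted p = 0.134). PAICS had -0.08 (adjusted p = 0.0205 by limma, SE 0.03) and GUK1 had -0.18 (adjusted p = 0.0367 by limma, SE 0.06). Of the 5 deoxynucleotide and thymidylate genes 0 were called here by limma, edgeR or DESeq2, and 0 had an unadjusted p under 0.05, while quantile normalisation called RRM1 higher at 0.09 (limma adjusted p = 0.0426). RRM2 was 2768, 2922, 2932 and 2966 under IMP1088 at medium MYC, overlapping its DMSO libraries, with a log2 change of -0.04 (limma adjusted p = 0.455). Of the 12 replication and mitosis markers 5 were lower here and 0 were higher, against 14.6% and 11.7% of all genes tested. Their median log2 change was -0.04. AK4, GMPS and TK1 were the members lower under IMP1088 at both MYC levels. PAICS lost its call without medium MYC DMSO library 4 (limma adjusted p = 0.056) or IMP1088 library 2 (0.0694) or 4 (0.0681). GUK1 lost it without DMSO library 1, 3 or 4 or IMP1088 library 1 or 2, with an adjusted p between 0.0547 and 0.132. Of the 14 other settings PAICS lost its call in 6 and GUK1 in 7, and the GC correction took GUK1 to -0.10 (limma adjusted p = 0.194).

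**Figure D4:**
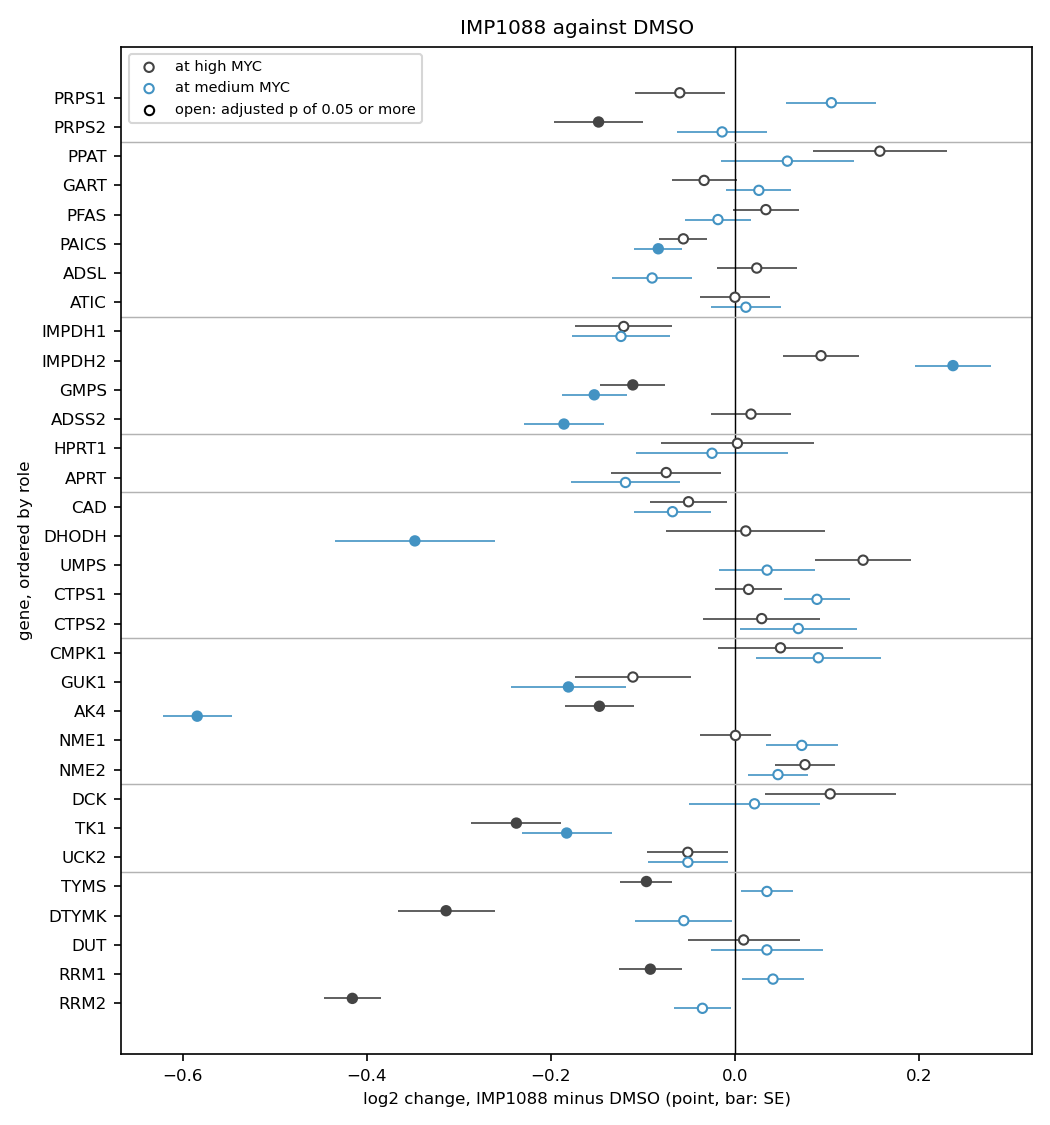
Points give the log2 change of each member under IMP1088 against DMSO, at high MYC (grey) and medium MYC (blue), with bars for the SE of the limma fit. Filled points had an adjusted p under 0.05. RRM2 and DTYMK lie left of 0 with filled points at high MYC, at -0.42 and -0.31, and close to 0 with open points at medium MYC, at -0.04 and -0.06, AK4 lies farthest left at medium MYC, at -0.58, and IMPDH2 lies right at medium MYC, at 0.24.

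Whether the response to IMP1088 differed with the MYC level was tested as the change at medium MYC minus the change at high MYC. For 2 of the 32 members the difference was negative, for 3 it was positive and for 27 it did not pass, against 3.31% negative and 5.33% positive among all genes tested. The difference was -0.44 (adjusted p = 8.06e-06 by limma, SE 0.05) for AK4, whose log2 change under IMP1088 was -0.15 at high MYC and -0.58 at medium MYC. For RRM2 it was 0.38 (adjusted p = 4.79e-06 by limma, SE 0.04), from changes of -0.42 and -0.04. These 2 calls held in each of the 13 other settings that can give a difference and in the 16 fits without a library. The other 3 were closer to the threshold: DTYMK at 0.26 (adjusted p = 0.0327 by limma, SE 0.07), TYMS at 0.13 (adjusted p = 0.0454 by limma, SE 0.04) and ADSS2 at -0.20 (adjusted p = 0.0426 by limma, SE 0.06). DTYMK lost its call in 8 of the 16 fits without a library, TYMS in 13 and ADSS2 in 13, with adjusted p of up to 0.0765, 0.0916 and 0.0917, and DESeq2 called 0 of the 3. Of the 13 other settings DTYMK lost its call in 3, TYMS in 8 and ADSS2 in 5. DHODH had a difference of -0.36 (limma adjusted p = 0.0758). Without medium MYC DMSO library 3 the difference of DHODH was -0.42 with an adjusted p of 0.0312, and with the GC correction it was -0.38 (0.043). Without the same library the difference of IMPDH2 was 0.20 (limma adjusted p = 0.00404), against 0.14 (limma adjusted p = 0.142) with it. Of the replication and mitosis markers 5 of 12 had a positive difference, and their part in that of RRM2 was not tested.

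Other enzymes and transporters of nucleotide metabolism, outside the 32, were found on both sides of the MYC contrast. Of 55 such genes 41 passed the filter. In DMSO 13 were higher and 18 lower at medium MYC, against 38.9% and 37.3% of all genes tested, with a median log2 change of -0.06. Under IMP1088 15 were higher and 16 lower, against 39.7% and 37.8%. DCTPP1, a dCTP pyrophosphatase, had a log2 change of -1.71 (adjusted p = 1.28e-17 by limma, SE 0.05) in DMSO, and PNP, which splits purine nucleosides, had -1.47 (adjusted p = 7.09e-17 by limma, SE 0.05). NME4, a mitochondrial nucleoside diphosphate kinase, had -1.38 (adjusted p = 8.29e-14 by limma, SE 0.07). UPB1, which acts in pyrimidine breakdown, went from 14.9 ± 4.0 to 86.2 ± 9.35 normalised counts (SD, n = 4), a log2 change of 2.49 (adjusted p = 4.99e-09 by limma, SE 0.24). CMPK2, a mitochondrial UMP/CMP kinase, and AMPD3, an AMP deaminase, were higher by 1.35 and 1.31 (limma adjusted p = 3.44e-11 and 1.08e-13).

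Under IMP1088 the p53-inducible subunit of ribonucleotide reductase, RRM2B, was higher at both MYC levels. It went from 609 ± 53.9 to 729.8 ± 41.8 at high MYC and from 675 ± 58.9 to 957 ± 32 at medium MYC (SD, n = 4), with log2 changes of 0.26 (adjusted p = 0.00345 by limma, SE 0.06) and 0.51 (adjusted p = 2.75e-06 by limma, SE 0.06). CMPK2 was lower at both levels, by -0.94 at high MYC and -0.36 at medium MYC on the log2 scale, and the difference was 0.59 (adjusted p = 0.00774 by limma, SE 0.14). SLC29A2, an equilibrative nucleoside transporter, went from 264 ± 22.7 to 133 ± 11.3 at medium MYC (SD, n = 4), a log2 change of -0.98 (adjusted p = 1.73e-09 by limma, SE 0.07), and its difference between MYC levels was -0.71 (adjusted p = 9.84e-05 by limma, SE 0.11). SAMHD1, which degrades dNTPs, had a log2 change of -0.39 (adjusted p = 7.05e-09 by limma, SE 0.03) at high MYC and of -0.27 (adjusted p = 1.05e-06 by limma, SE 0.03) at medium MYC. NT5E, a nucleotidase of the cell surface, had -0.35 (adjusted p = 0.000308 by limma, SE 0.06) at medium MYC, and ADA, which deaminates adenosine, had 0.33 (adjusted p = 0.000289 by limma, SE 0.06). In all, 1 of the 41 was higher and 8 lower under IMP1088 at high MYC, against 10.5% and 16.3% of all genes tested, and 2 were higher and 8 lower at medium MYC, against 11.7% and 14.6%.

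Read assignment limits some of these values. Exons of 13 of the 32 members overlap another gene on either strand in GENCODE release 29, and 12 have at least 1 pseudogene that carries their name, among them DUT with 8, PAICS and IMPDH1 with 7 each and AK4 with 6. Reads shared with such copies cannot be told apart in the deposited table.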

How the data were processed

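Per the labels' protocols, 16 libraries of P493-6 RNA were sequenced by Illumina HiSeq. The authors deposited 1 table of normalised counts, an expression signal for 58051 genes that is not scaled for gene length. The submitters' processing notes name STAR 2.5.2a, RSEM 1.2.31, DESeq2 1.16.1 and GRCh38, and the annotation release and use of strand are not given in the sources used here. Each value was a whole multiple of a step that was constant within its library (100% of values above 0, tolerance 0.001), and the steps matched median-of-ratios size factors, so reads could be recovered.

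Values plus 1 were put on a log2 scale, which understates the changes of low genes, and tested with limma 3.58.1 under R 4.3.3. Genes had to average 10 or more, which left 13765, with 1 fit of 4 group means over all 16 libraries, a mean trend, and Benjamini-Hochberg adjustment over all genes tested, two-sided at 0.05. A fold is the limma log2 change put back on the linear scale. MYC also received an exact permutation test. Groups came from the labels. Scripts were tested on counts simulated with a common spread and known changes. For IMP1088 at high MYC the fit called 31.6% of log2 changes of 0.25 and 90% of those of 0.5. For the difference in response it called 1.8% and 65%. The simulation changed few of its 13765 genes: 57 by 0.25, 40 by 0.5, 52 by 1 and 51 by 2. In the data 26.8% of genes were called for IMP1088 at high MYC, so the adjustment differs. The shares therefore do not carry over directly to the members. A gene that did not pass may still have changed by a small amount.

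Symbols came from a table of gene names (56948 identifiers matched), positions from GENCODE release 29 and promoter sequences from RefSeq (GRCh38.p14). The genes named were MYC, all 32 members, and from the other nucleotide genes up to 3 per direction with the largest change among those called with a mean of at least 50. Markers of replication and of cell types were also fixed as lists. A few genes of these lists are not reported here and are in none of the lists' counts. The members and lists were chosen with earlier results of these data known. Alternatives were 2 other pseudocounts, 2 other filters, 3 other scalings, a GC correction, replicate blocks, fits of the compared groups only, no mean trend, edgeR 4.0.16 and DESeq2 1.42.0 on recovered reads, and leaving out each library.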

Additional observations from a re-analysis of the deposited data

Results flagged for a closer look

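In a group of 4 libraries, 1 library stood far from the other 3 for 9 of the 132 gene and group pairs examined, where chance alone gives about 5%. At medium MYC in DMSO these were the highest library of GART (1391), of TYMS (2342) and of UCK2 (613) and the lowest of HPRT1 (442). At medium MYC with IMP1088 they were the highest library of GART (1426), the lowest of PRPS2 (528) and the lowest of DHODH (69.9). At high MYC they were the lowest IMP1088 library of IMPDH1 (1005) and the highest DMSO library of GMPS (1958). All values are normalised counts. At medium MYC in DMSO the values of GART, UCK2 and HPRT1 came from the same library, number 3, and that of TYMS from number 4. Library 3 also had the largest share of reads in its 10 most abundant genes, 14.3%, against 9.58% in the lowest library. Pairs that share a library are not independent, so the 5% is not a test of their number.

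The log2 response to IMP1088 at medium MYC minus that at high MYC passed the limma test for 7 of the genes named. Among the members it was -0.44 for AK4 and -0.20 for ADSS2, and 0.38 for RRM2, 0.26 for DTYMK and 0.13 for TYMS. Outside the members it was 0.59 for CMPK2 and -0.71 for SLC29A2.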

How the results depend on the processing

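Each gene result was recomputed under up to 14 other settings (13 for the differences in response and for UPB1) and without each of the 16 libraries. No gene result that passed the test reversed, and for medium against high MYC the members called lower stayed at 25 or 26 and those called higher at 5 or 6 under every alternative. Counts for IMP1088 moved more. At high MYC the members lower (8) became 5 with no filter, 4 with equal library totals, 4 with quantile normalization and 5 with DESeq2, and 5 to 8 without a library. The members higher there (0) became 1 with a filter at a mean of 100, 3 with equal totals, 1 with TMM factors, 3 with quantile normalization, 4 with the GC correction, 4 with that and the replicate block, 1 with only the groups compared, 3 with edgeR and 1 with DESeq2, and 0 to 2 without a library. At medium MYC the members higher (1) became 3 with equal totals, 2 with TMM factors, 4 with quantile normalization, 2 with the GC correction and 2 with the replicate block added, and 1 to 2 without a library. For the difference in response, the members positive (3) became 1 with no filter, 1 with quantile normalization and 1 with DESeq2, and 1 to 3 without a library. The members negative (2) became 1 with no filter, 1 with equal totals, 1 with the replicate block, 1 with no mean trend and 1 with DESeq2, and 1 to 2 without a library. Over all genes the negative differences (455) became 767 with the GC correction and 720 with the replicate block added. The cause of these shifts was not tested. The replicate block was fitted although same-numbered libraries did not deviate together on average. Mean correlations lay from -0.07 to 0.02, and at most 2 of the 8 libraries of a comparison were closest to their own number. The highest single correlation was 0.24, between the number 4 libraries of medium and high MYC in DMSO, and the lowest was -0.15. The block moved the count of members called in each direction by at most 1 in every comparison. Members had at least 60 reads in every library, and how far depth, apart from the spread between libraries, limits small changes was not tested.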
